A study of Mus musculus with 4 samples.

Results

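Transcription initiation at 8 genes that carry, store and convert retinoids was described in mouse embryos at stage E14.5, in liver and in yolk sac. The 8 genes, Ttr, Rbp4, Stra6, Rbp2, Lrat, Dhrs3, Aldh1a1 and Aldh1a2, were chosen by name, out of 21951 protein-coding genes in the annotation. The values are dREG peaks. These are intervals that a classifier marks as regions where transcription starts, at promoters or at distal sites such as enhancers, from PRO-seq reads, which map RNA polymerases engaged on DNA. There were 2 libraries of liver and 2 of yolk sac, each of tissue pooled from 6 embryos. The embryos of both tissues came from C57BL/6J mothers. Their fathers were of mixed C57BL/6J and CAST/EiJ background and carried CAST/EiJ alleles at the Dlk1/Gtl2 locus. No sample was treated or mutated, and no allele was resolved here. The labels do not say whether the replicates of a tissue came from separate pools, so the spread between them may be technical.

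Retinol (vitamin A) travels in blood bound to retinol-binding protein 4 (Rbp4), which is held in the circulation by transthyretin (Ttr). Cells take it up through receptors such as Stra6, bind it inside with cellular retinol-binding proteins, store it as esters made by Lrat, or oxidise it through retinaldehyde to retinoic acid, the ligand of the retinoic acid receptors. The embryonic liver and the visceral endoderm of the yolk sac both secrete carrier proteins, and the yolk sac passes maternal nutrients to the embryo.

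The liver lists held 24863 and 24333 peaks and the yolk sac lists 50525 and 43055, a 1.90-fold difference between the tissue means. Read depth is unknown for these lists, so the counts over the 8 genes are set beside the same counts over all protein-coding genes or all regions. With 2 libraries against 2, an exact permutation test cannot give a p-value below 0.333. Marker genes were looked at as a check of the labels. Promoter peaks stood at 9 of 9 erythroid genes in each liver list and at 3 of them in each yolk sac list. Visceral endoderm genes numbered 10 and had such a peak at 10 and 10 in yolk sac and at 8 and 7 in liver. Of 10 hepatocyte genes, 7 and 6 had one in liver, against 7 and 7 in yolk sac. Both of these lists hold genes that both tissues use. Of all protein-coding genes, 5.25% had such a peak in both yolk sac lists alone and 1.01% in both liver lists alone. In bulk tissue, fewer cells of a type and less transcription per cell cannot be told apart.

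The DNA before the starts of 5 of the genes is shown because these starts gave the clearest contrasts: Rbp2, Dhrs3 and Aldh1a1 differed between tissues, Rbp4 did not, and Aldh1a2 was nearly without peaks. Sequences are from RefSeq (GRCm38.p6), whose promoter table matched 7 of the 8 genes, all except Ttr, and each run ends before the RefSeq start, without bases in annotated exons of the gene. Capitals mark matches on either strand to TATAAA (the core of the TATA box), GGGCGG (the GC box), CCAAT (the CCAAT box) or AGGTCA (a half-site of nuclear receptors). No match overlaps another in these runs.
Rbp2 (chr9:98490287-98490536, plus strand): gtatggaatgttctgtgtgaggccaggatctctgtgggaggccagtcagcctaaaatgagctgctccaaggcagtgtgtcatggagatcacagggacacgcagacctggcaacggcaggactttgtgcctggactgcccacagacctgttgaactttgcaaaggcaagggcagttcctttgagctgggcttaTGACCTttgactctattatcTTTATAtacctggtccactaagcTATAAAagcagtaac
Rbp4 (chr19:38124829-38124954, minus strand): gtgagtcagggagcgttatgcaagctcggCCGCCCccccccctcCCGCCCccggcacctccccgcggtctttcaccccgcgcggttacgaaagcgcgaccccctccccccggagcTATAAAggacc
Aldh1a1 (chr19:20492333-20492582, plus strand): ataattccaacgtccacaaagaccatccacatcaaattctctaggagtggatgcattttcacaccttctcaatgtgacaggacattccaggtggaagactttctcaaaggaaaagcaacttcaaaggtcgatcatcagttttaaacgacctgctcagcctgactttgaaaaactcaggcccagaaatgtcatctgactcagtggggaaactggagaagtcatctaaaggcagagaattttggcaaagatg
Dhrs3 (chr4:144892577-144892826, plus strand): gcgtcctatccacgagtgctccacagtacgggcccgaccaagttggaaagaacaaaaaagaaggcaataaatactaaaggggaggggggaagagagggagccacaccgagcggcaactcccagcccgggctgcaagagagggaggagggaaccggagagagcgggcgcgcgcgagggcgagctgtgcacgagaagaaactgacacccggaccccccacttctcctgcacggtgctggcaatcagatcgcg
Aldh1a2 (chr9:71215539-71215788, plus strand): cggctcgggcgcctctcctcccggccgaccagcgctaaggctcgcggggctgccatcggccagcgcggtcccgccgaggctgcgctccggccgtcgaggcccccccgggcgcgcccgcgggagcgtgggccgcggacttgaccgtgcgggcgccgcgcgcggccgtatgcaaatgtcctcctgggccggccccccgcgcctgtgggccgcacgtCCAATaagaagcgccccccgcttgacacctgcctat

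The starts differ in their CpG content, which tends to be high in promoters used in many tissues. The 250 bases before the start shown above held 2 CpG dinucleotides at Rbp2, 3 at Aldh1a1, 19 at Dhrs3 and 40 at Aldh1a2. The median over 32841 RefSeq promoter windows was 6. Windows before further RefSeq starts, partly in annotated exons, held 1 at Aldh1a1 and 8 and 7 at Dhrs3. Rbp4 has RefSeq starts at 38125321 and 38124811. The window before the first held 5, and that before the other, of which 124 bases lie in annotated exons, held 28. TATAAA was found on the strand of the gene 15 bases before the start of Rbp2 and 28 bases before that of Rbp4, and 12.4% of all windows held it on either strand. AGGTCA was found at Rbp2 and at none of the other windows of the 7 genes, and 14% of all windows held it. A direct repeat of the retinoic acid receptor half-site spaced by 5 bases (DR5), searched on both strands, was in none of the members' windows and in 0.0883% of all windows. Among the other retinoid genes examined it was found before Rarb (chr14:16575513-16575529, the strand of the gene, in an annotated exon), as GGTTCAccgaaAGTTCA. It was also found before Cyp26a1 (chr19:37697776-37697792, the opposite strand), as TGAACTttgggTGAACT. Capitals mark the half-sites. These are matches of letters, not measured binding.

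A promoter peak, one overlapping 500 bp either side of any annotated start, was present in all 4 libraries at 4 of the 8 genes, Ttr, Rbp4, Rbp2 and Dhrs3, a pattern that 53.8% of protein-coding genes had. Aldh1a1 was called in each yolk sac library and not in liver, as were 5.25% of genes. None of the 8 was called in liver only (1.01% of genes). Stra6 had no promoter peak in any library, as was true of 34.2% of genes. Aldh1a2 and Lrat were called in liver replicate 2 alone, a pattern of 0.301% of genes, so without that library 3 genes had no promoter peak. Without liver replicate 1 both became liver-only.

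The plasma carriers came first. Ttr (chromosome 18, 20665280 to 20674321, plus strand, 1 annotated start) had a promoter peak of 2102 and 1852 bp in liver, against 2952 and 3102 bp in yolk sac. The tissues did not overlap: the mean was 1977 ± 177 bp in liver and 3027 ± 106 bp in yolk sac, a 1.53-fold difference (SD, n = 2; exact permutation p = 0.333, the smallest possible). The extra width lay on the upstream side. The peak began 529 and 329 bp before the start in liver and 1729 and 1779 bp before it in yolk sac, while its downstream edge was 1572 and 1522 bp after the start in liver and 1222 and 1322 bp after it in yolk sac. An antisense gene, Gm16090, starts in or within 500 bp of the same region, and the lists carry no strand, so the initiation of the 2 genes cannot be told apart. The peak stood at the 34.8 and 33.9 percentiles of the score, ranked within each list, in the liver lists and at the 44.9 and 65.1 percentiles in the yolk sac lists.

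Upstream of Ttr, 2 regions were yolk-sac-only, meaning that each yolk sac library and no liver library had a peak there. They were 5.08 kb (chr18:20659801-20660602) and 16.4 kb (chr18:20648451-20649252) before the start, and both lay within Gm16090, outside Ttr exons. The nearer one was 802 and 652 bp wide and the farther one 802 and 102 bp. The nearer stood at the 28.3 and 52.9 percentiles and the farther at the 37 and 6.95 percentiles. A region in the body of Ttr was also yolk-sac-only, 102 and 252 bp wide and at or below the 5.88 percentile of its lists. Peaks in the gene and the 20 kb on either side numbered 3 and 1 in liver, against 5 and 5 in yolk sac. Every list was also cut to its 24333 peaks of highest score, the length of the shortest list. Peaks at the locus then numbered 3 and 1 in liver, against 0 and 2 in yolk sac. The promoter peak was then missing in yolk sac replicate 1. The region at 5.08 kb was then called in yolk sac replicate 2 alone. Those at 16.4 kb and in the gene body were called in no library. Peaks of liver replicate 1 at 8.52 and 18.6 kb after the start were still called.

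Rbp4 (chromosome 19, 38116629 to 38125281, minus strand, 4 annotated starts) was the member whose promoter peak was alike in the tissues. It was 2402 and 2202 bp wide in liver and 2452 and 2252 bp in yolk sac, with means of 2302 ± 141 and 2352 ± 141 bp (SD, n = 2; exact permutation p = 0.667). The values of the tissues interleaved. It stood at the 69.8 and 56.9 percentiles in liver and at the 72.8 and 59.9 percentiles in yolk sac.

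Regions in and near the gene numbered 5, and 4 of them had a peak in every library, one being at the start of the neighbour Ffar4. The fifth, 3.05 kb past the gene end, was yolk-sac-only. One of the shared regions lay 9.87 kb before the start (chr19:38133751-38136552), within the neighbouring gene Pde6c. There the yolk sac lists each had a single peak of 2702 and 2802 bp, liver replicate 1 had separate peaks of 252 and 602 bp, and liver replicate 2 had 1 peak of 602 bp. Peaks at the locus numbered 5 and 4 in liver, against 5 and 6 in yolk sac, and the ranges met (exact permutation p = 0.667). In the lists of 24333 peaks they numbered 5 and 4 in liver, against 3 and 2 in yolk sac, with no overlap. Of the 4 regions that every library had called, the promoter and the one in Pde6c were then still called in all of them. The region in the body of Rbp4 was then liver-only, and the one at Ffar4 was missing in yolk sac replicate 2.

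**Figure D1:**
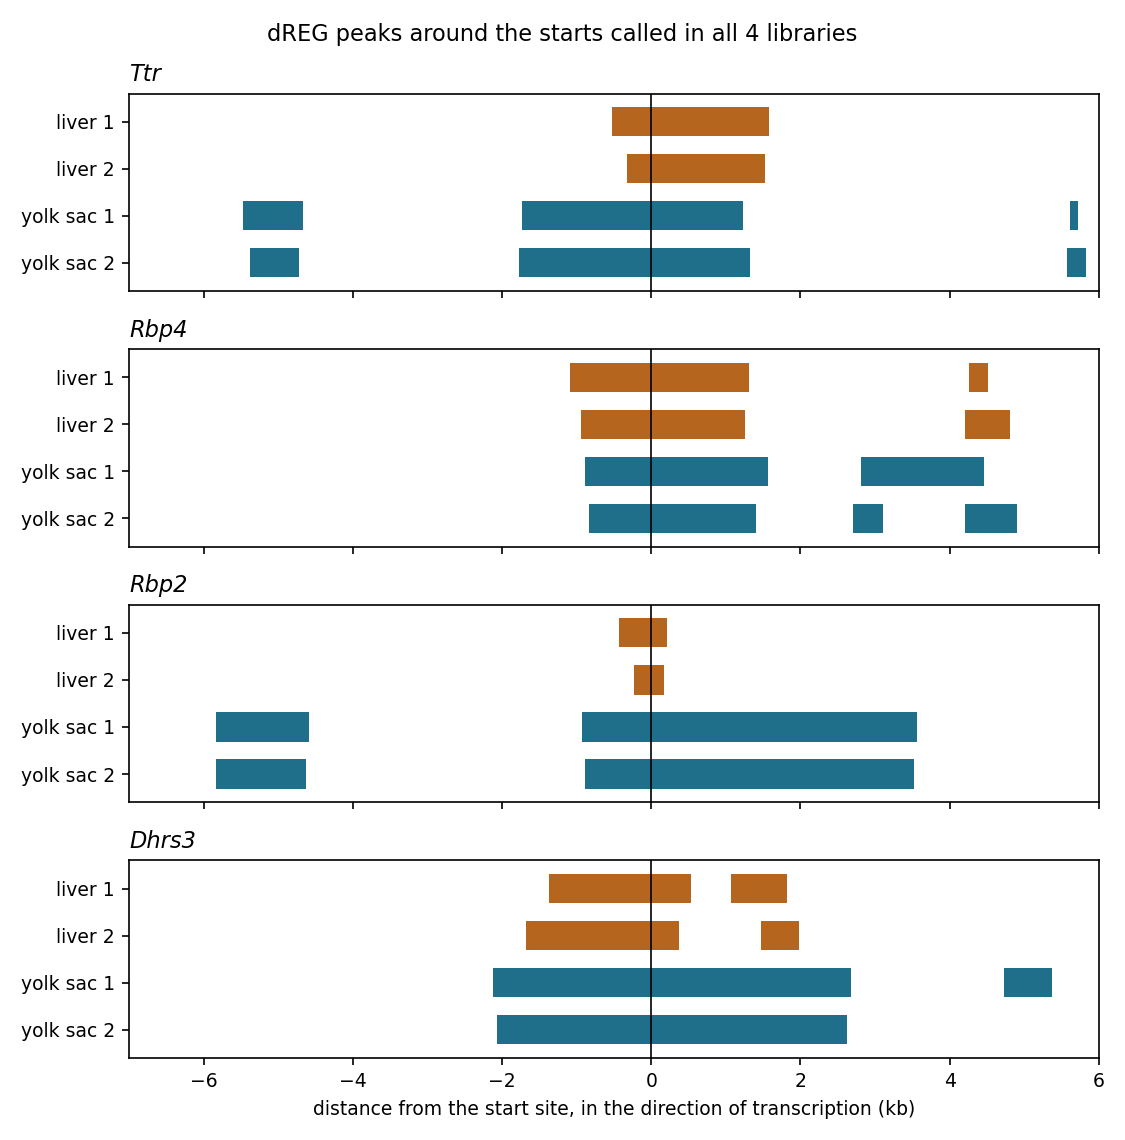
Peaks of each library (bars, to scale) around the starts of Ttr, Rbp4, Rbp2 and Dhrs3, by distance in kb from the RefSeq start (for Ttr, the annotated start) in the direction of transcription; liver bars are brown and yolk sac bars blue. At Rbp2 the yolk sac peaks of 4502 and 4402 bp extend past the start where the liver peaks are 652 and 402 bp, and a further yolk sac peak lies upstream.

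Stra6, the membrane receptor that takes retinol from Rbp4, had no peak within 500 bp of any of its 12 annotated starts (chromosome 9, 58063788 to 58153996). The only peaks inside the gene lay 0.769 kb before its end (chr9:58152801-58153652), over annotated exons, in yolk sac only. They were 852 and 352 bp wide, at the 33.9 and 8.3 percentiles. A region of all 4 libraries 4.98 kb past the gene end lay at the start of the neighbouring gene Islr.

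Rbp2, a cellular retinol-binding protein best known from the absorptive cells of the intestine, gave the widest contrast of the 8 (chromosome 9, 98486115 to 98509781, plus strand). At its internal start (98490537), whose sequence with TATAAA is shown above, the peak was 652 and 402 bp wide in liver, against 4502 and 4402 bp in yolk sac. The means were 527 ± 177 and 4452 ± 70.7 bp (SD, n = 2), an 8.45-fold difference with no overlap (exact permutation p = 0.333, the smallest possible). In liver the peak ended 215 and 165 bp after this start, and in yolk sac 3565 and 3515 bp after it. The gene has 4 annotated starts, and the yolk sac peaks also spanned the one at 98491697, before which the liver peaks ended. Their width is thus not that of a single start. The annotation also places the start of Gm37113, a provisional gene model, in or within 500 bp of this region.

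Rbp2 also had a start region that was called in yolk sac only. It lay at chr9:98484701-98485952, and the peaks ended 163 and 213 bp before the first annotated start of the gene. The peaks were 1252 and 1202 bp wide and stood at the 93.2 and 98 percentiles of the yolk sac lists. Such an additional yolk-sac-only start region was found at 6.64% of the genes with a start region of all 4 libraries. It was still yolk-sac-only in the lists of 24333 peaks.

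Widths were compared over the 11805 protein-coding genes with a promoter peak in all libraries, taking the widest peak of each gene. Of the 4 members among them, 3 had both yolk sac widths above both liver widths, against 35.6% of all genes, and none was wider in liver (20.7% of all genes). The median ratio of yolk sac to liver over all these genes was 1.04. The ratio was 8.45 at Rbp2, 2.40 at Dhrs3, 1.53 at Ttr and 1.02 at Rbp4, which placed them at the 99.8, 94.7, 84.2 and 47.3 percentiles of all genes. Rbp2 and Dhrs3 were thus among the 8.23% of genes with a peak at least 2-fold wider in yolk sac. The part of read depth in these widths was not tested.

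**Figure D2:**
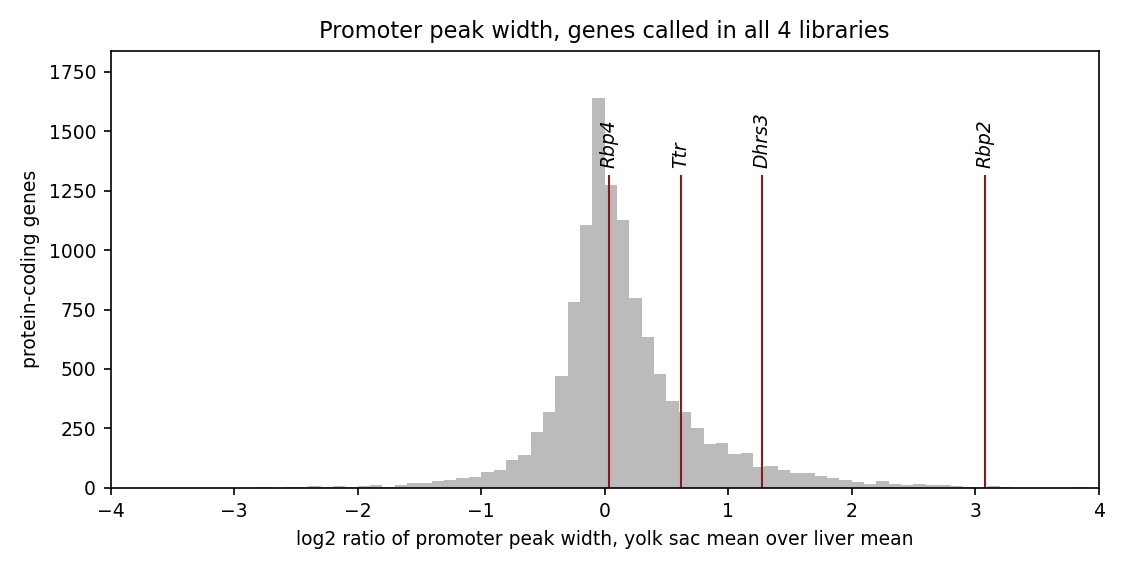
Number of protein-coding genes (vertical axis) by the log2 ratio of the widest promoter peak, yolk sac mean over liver mean (horizontal axis), for the 11805 genes called in all 4 libraries. Red lines mark Rbp4 near the centre, Ttr, Dhrs3 and, at 3.08, Rbp2.

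Lrat, which esterifies retinol for storage and marks the stellate cells of the liver, had 1 promoter peak (chromosome 3, 82892579 to 82903973, minus strand). It was 102 bp wide, in liver replicate 2 only, and at the 2.84 percentile of that list. The antisense gene Rbm46os starts within 500 bp of it. Of 10 stellate cell markers, promoter peaks were found at 5 and 7 in the liver lists, against 8 and 9 in yolk sac. Of these markers 2 were called in yolk sac only and 0 in liver only, against 5.25% and 1.01% of all protein-coding genes. The part of stellate cells in the Lrat calls was not tested. The other region near Lrat, called in yolk sac only, lay at the start of Rbm46.

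Dhrs3 reduces retinaldehyde back to retinol and thereby limits retinoic acid, and its transcription is known to respond to retinoic acid. Its promoter peak (chromosome 4, gene from 144892827 to 144928209, plus strand) was 1902 and 2052 bp wide in liver, against 4802 and 4702 bp in yolk sac. The means were 1977 ± 106 and 4752 ± 70.7 bp (SD, n = 2; exact permutation p = 0.333, the smallest possible). The yolk sac peak reached 2675 and 2625 bp past the start, and the liver peak 525 and 375 bp. Each liver list had a separate smaller peak, of 752 and 502 bp, inside the interval that was 1 peak in yolk sac.

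Dhrs3 had the most regions of the 8 genes, 9 in and within 20 kb of it. The promoter region was shared by the 4 libraries, 4 regions were yolk-sac-only, and none was liver-only. The yolk-sac-only regions were in introns 8.5 and 11 kb after the start and 2.29 and 19.7 kb past the gene end. The one 2.29 kb past the end (chr4:144929601-144931402) was 1802 and 1102 bp wide and stood at the 99.7 and 93.8 percentiles of the yolk sac lists, higher than the promoter peak of the same gene in each list (69.4 and 76.6). No other annotated gene starts within 500 bp of it. It and the region 11 kb after the start (chr4:144903301-144904452) were still yolk-sac-only in the lists of 24333 peaks. An intronic region 13.8 kb after the start had peaks of 852 and 902 bp in yolk sac and 1 of 102 bp in liver replicate 1. Another, 21 kb after the start, had a peak of 352 bp in liver replicate 1 alone, at the 30 percentile. It was still called there in the lists of 24333 peaks. Peaks at the locus numbered 4 and 2 in liver, against 8 and 6 in yolk sac (exact permutation p = 0.333, the smallest possible). In the lists of 24333 peaks they numbered 4 and 2 against 3 and 5, and the tissues overlapped.

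The retinaldehyde dehydrogenases make retinoic acid. Aldh1a1 (chromosome 19, 20492715 to 20643465, plus strand) had no peak in liver and 4 in each yolk sac library, at the same 4 places. These were the promoter and introns 21.3, 43.9 and 84.6 kb after the start. The promoter peak was 502 and 152 bp wide, at the 47.8 and 1.27 percentiles, and the intronic peaks stood between the 2.54 and 29.2 percentiles. None of the 4 regions was left in the lists of 24333 peaks, in which 2.61% of all genes had a promoter peak in yolk sac only. The noncoding gene C730002L08Rik overlaps the promoter and the introns at 21.3 and 43.9 kb.

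Aldh1a2, the main retinaldehyde dehydrogenase of early embryos and of mesothelium, had 1 peak in the 4 lists, at its start (chromosome 9, 71215789 to 71296243, plus strand). It was 202 bp wide, in liver replicate 2, at the 13 percentile. The 40 CpG dinucleotides before this start were more than in most promoters: 98.9% of RefSeq windows held as many or fewer. Of 8 mesothelial markers, promoter peaks were found at 5 and 5 in yolk sac, against 0 and 0 in liver, while Aldh1a2 itself had no yolk sac peak. A call in yolk sac only was the pattern of 5.25% of all protein-coding genes. The markers were not recounted in lists of equal length.

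Over the 8 genes, merging the lists gave 32 regions, of which 8 had peaks in every library, 15 were yolk-sac-only, 0 were liver-only and 9 had other combinations. Over the genome the shares were 25.7% of 61095 regions in all libraries, 33% in yolk sac only and 6.62% in liver only, and for these genes they were 25%, 46.9% and 0%. In the lists of 24333 peaks the same 32 regions were called in all libraries at 5, in yolk sac only at 3, in liver only at 1 and in none at 13. Over the genome 20.1%, 10.7%, 9.96% and 36.3% of the 61095 regions then had these patterns. Away from the members' own starts there were 24 regions, 13 of them (54.2%) yolk-sac-only, against 29.7% of the 69068 pairs of a protein-coding gene and a region away from its starts. In the lists of 24333 peaks it was 2 of the 24 (8.33%) against 8.45%. Starts of other protein-coding genes (Ffar4, Islr and Rbm46) accounted for 3 of the 32.

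The summed number of peaks was 14 and 11 in liver, against 27 and 26 in yolk sac. The means were 12.5 ± 2.12 and 26.5 ± 0.707 (SD, n = 2), a 2.12-fold difference where the whole lists differed 1.90-fold. By gene, 5 of 8 had both yolk sac counts above both liver counts, against 46.1% of the 17256 protein-coding genes with a peak in reach, and none had more in liver (7.46% of genes). Adjusted over those genes, the permutation p was 0.623 for each of the 5 (exact test, 2 against 2). In the lists of 24333 peaks the order turned: the members' sum was 0.84 times as high in yolk sac as in liver, and 1 of the 8 genes, Rbp2, had more peaks in each yolk sac library, against 14.8% of genes. Rbp4 then had more in each liver library, against 26.8% of genes.

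**Figure D3:**
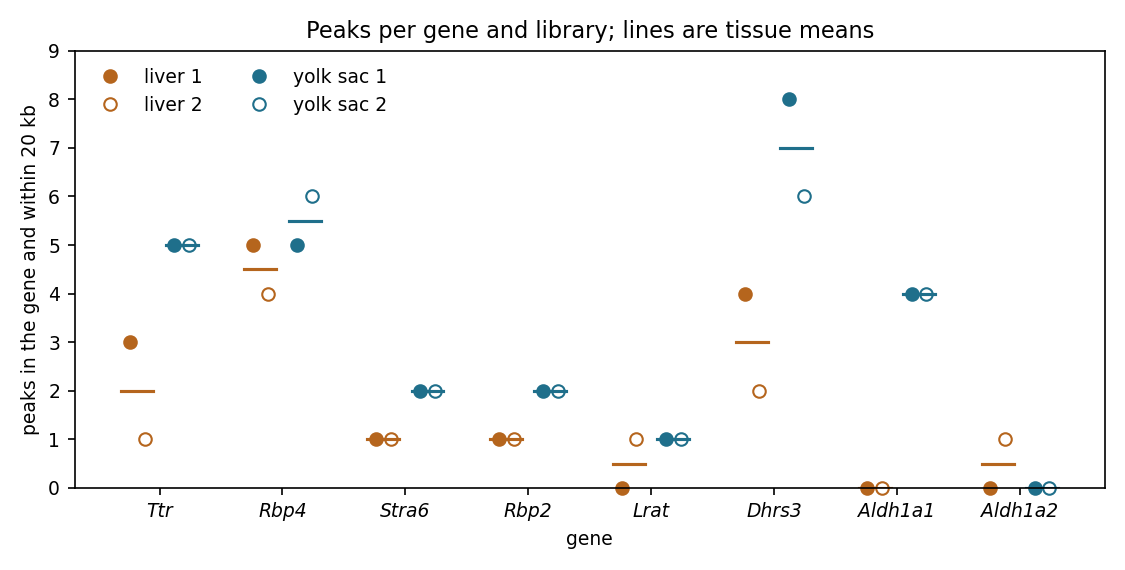
Peaks in each gene and within 20 kb (vertical axis) for the 8 genes; filled points are replicate 1, open points replicate 2, and lines the tissue means, liver in brown and yolk sac in blue. At Ttr, Stra6, Rbp2, Dhrs3 and Aldh1a1 both yolk sac points lie above both liver points.

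The other genes of the pathway were taken from lists by role, 56 genes in all. A promoter peak was found in all 4 libraries at 32 (57.1%, against 53.8% of all protein-coding genes), in yolk sac only at 3 (5.36% against 5.25%), in liver only at 0 and in no library at 14 (25% against 34.2%). The shares in all libraries and in yolk sac only were close to the background, and that in no library was lower. In and near the gene, 29 of 48 genes with a peak there (60.4%) had more peaks in each yolk sac library, against 46.1% of all genes. At 3 (6.25%, against 7.46%) each liver library had more. These locus counts are from the full lists. Without liver replicate 2 the yolk-sac-only genes numbered 5, and without yolk sac replicate 2 they numbered 6. The 3 yolk-sac-only genes were Dhrs9, Cd36 and Adh7. Dhrs9, a retinol dehydrogenase, had peaks of 1402 and 1102 bp at the 65.8 and 73.4 percentiles. It was still yolk-sac-only in the lists of 24333 peaks, whereas Cd36, a fatty acid and lipid scavenger receptor (1302 and 552 bp), and Adh7, an alcohol dehydrogenase that oxidises retinol (552 and 152 bp), were not.

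Further genes were chosen after their values were seen. For the counts by role that follow, the background is 53.8%, the share of all protein-coding genes called in every library. Whether any role group differed from that share was not tested. Retinoic acid receptors were called in all libraries at 5 of 6 genes, the exception being Rxrg, with 1 peak of 302 bp in yolk sac replicate 1. Of the enzymes that clear retinoic acid, Cyp26a1 and Cyp26c1 had no promoter peak and Cyp26b1 had 1 of 252 bp in yolk sac replicate 1. Enzymes that convert retinol and retinaldehyde were called in all libraries at 7 of 13, among them Rdh10, the main retinol dehydrogenase of the embryo, with peaks of 3202 and 2902 bp in liver and 3052 and 2802 bp in yolk sac. Of the genes for uptake and carotenoid cleavage, 6 of 8 were called in all libraries. Among them Stra6l, the liver receptor for Rbp4 also known as Rbpr2, had peaks of 1202 and 1102 bp in liver and 1402 and 1352 bp in yolk sac, where Stra6 itself had none.

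**Figure D4:**
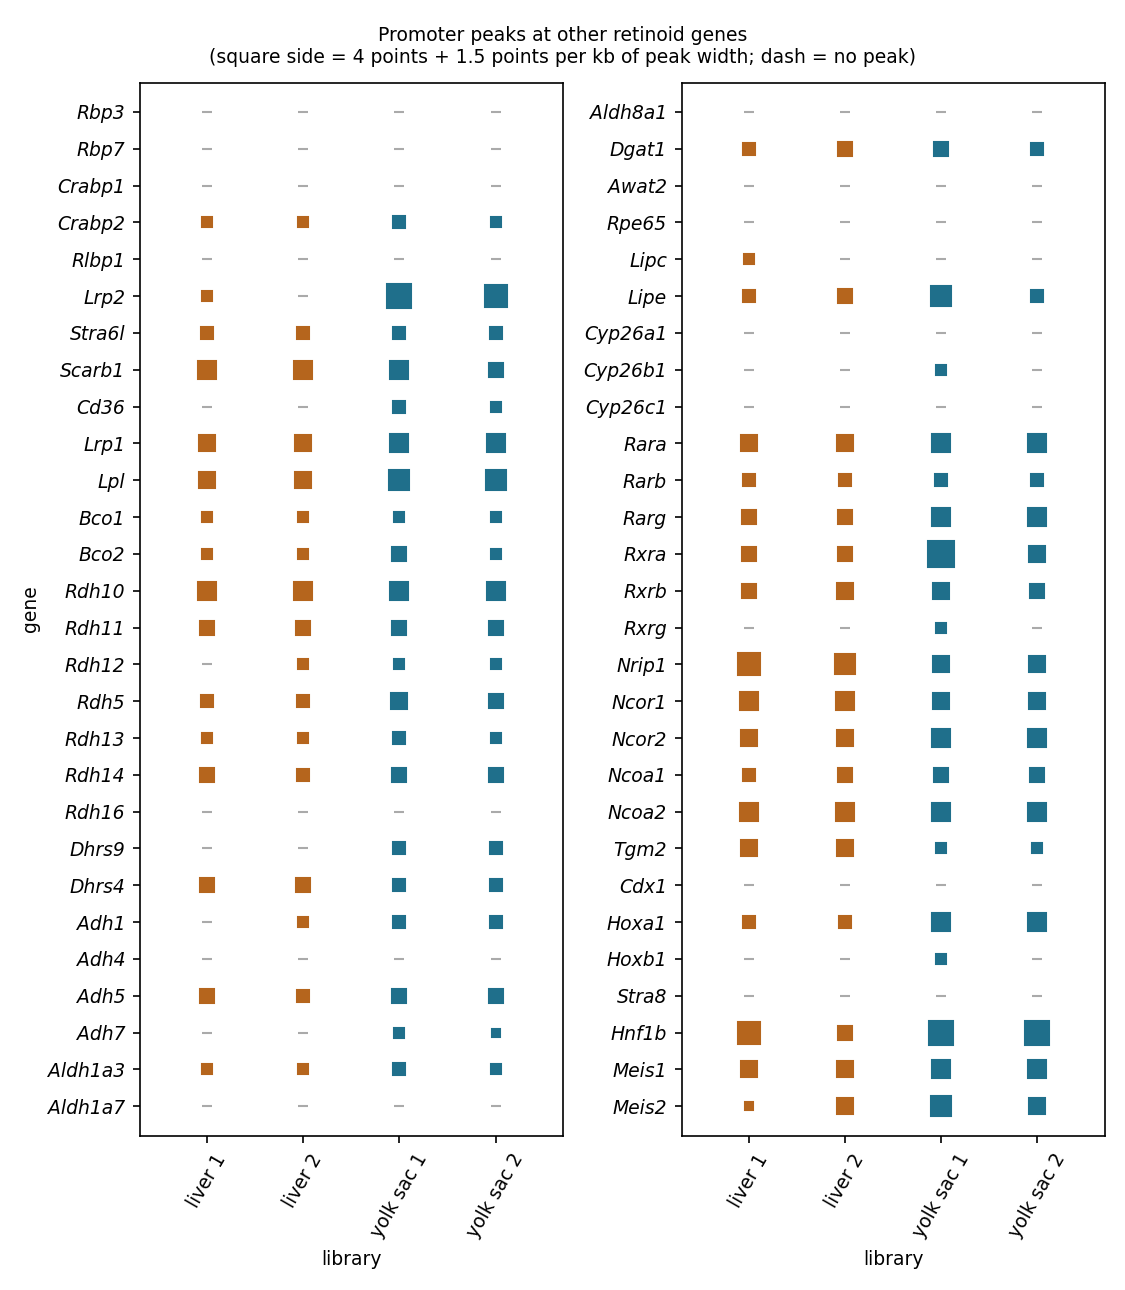
Promoter peaks at 56 other retinoid genes (rows, in 2 columns) in each library; a square is a peak, its side growing with the width in kb, and a dash means no peak. Dhrs9, Cd36 and Adh7 have squares in the yolk sac columns alone.

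The genes most like each member were sought by the score percentile of the promoter peak over the 4 libraries (0 where there was none). The nearest to Rbp2 was Sox17, with a mean absolute difference of 1.94 percentile points, the nearest to Rbp4 was Cbx2 (1.28), to Dhrs3 Pttg1 (2.3) and to Ttr Tagap (2.74). For Aldh1a1 it was Has3 (0.344), for Aldh1a2 Siglecf (0.036) and for Lrat Zfp984 (0.0668), where the last 2 values rest on a peak in 1 library. Has3 had a peak in yolk sac replicate 1 alone (47.9 percentile), whereas Aldh1a1 had one in each yolk sac list (47.8 and 1.27). With 4 values per gene many genes lie close, and the percentiles come from lists of different lengths.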

How the data were processed

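The authors deposited 1 peak list per library, with replicates not pooled. Each list gives chromosome, start, end and a score without a unit. The deposited score was not scaled between libraries and was used only as a percentile within its list or to select peaks. Bowtie2, bedtools and the build mm10 are named without versions, per the submitters' processing notes. The word dREG is from the file names, and its version and filters are not given in the sources used here. Lists hold no read counts, so depth is unknown. Positions are 1-based, with gene names from GENCODE M21 (GRCm38).

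Peaks were assigned to promoters (500 bp either side of any start) by overlap and to loci (the gene and 20 kb) by midpoint. Peaks overlapping by 1 bp or more were merged into regions. The tests between tissues were exact permutations, two-sided, over the 6 assignments, in Python 3.11.15 with numpy 2.4.6. P-values of locus counts were adjusted over all genes by Benjamini-Hochberg. The functions were checked on simulated lists. The alternatives were other windows (250 and 1000 bp) and flanks, 2 score filters, protein-coding starts, assignment by overlap, leaving libraries out in turn, and a block for the replicate number.

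The 8 members and all lists were chosen with earlier results of these data known. Named are the members, and pathway and marker genes called in 1 tissue only. Other pathway genes were named after their values were seen. For likeness, the nearest named gene per member is given, leaving out predicted genes. Of the pathway genes, 1 is not reported here and is in no count of that list.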

Additional observations from a re-analysis of the deposited data

How the results depend on the processing

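Of 284 values under alternatives, 236 kept their direction or size, 40 moved and 8 turned. The 236 include values that could not move. A block for the replicate number changes p-values alone, and a cut by score leaves the width of a kept peak as it was. Ttr, which lost a promoter peak in the lists of equal length, had no width to compare there. With 2 libraries against 2 no test could pass a threshold. A count of genes was taken to move when it differed by more than 1.5 times, the summed difference when it moved by more than the larger SD (2.12 peaks), the share of a tissue's libraries calling a promoter at any change, and the difference in peaks or width at a single gene only when it became or left 0. When every list was cut to its 24333 peaks of highest score, members called in yolk sac only fell from 1 to 0, those without a promoter peak rose from 1 to 2, the pathway genes in yolk sac only fell from 3 to 1, and members with more peaks in every yolk sac library fell from 5 to 1. Of all protein-coding genes, 2.61% were then called in yolk sac only (5.25% in the full lists) and 37.4% had no promoter peak (34.2%). More peaks in each yolk sac library were then found at 14.8% of genes with a peak in reach (46.1% in the full lists). The members' summed difference turned from 14 to -2 peaks, and that of Ttr to -1, of Rbp4 to -2 and of Lrat to -0.5. The Ttr promoter peak was then missing in yolk sac replicate 1. With the higher-scoring 50% of each list, members called in all libraries numbered 1 and in none 4, pathway genes in all libraries 21 and in yolk sac only 5, the summed difference was 8.5 and members with more peaks in yolk sac numbered 3. The summed difference was 11 with a flank of 10 kb, 22.5 with 50 kb and 7 in gene bodies alone, where 3 members had more peaks in yolk sac and Lrat turned to -0.5, as it did with 10 kb. The cause of these changes was not tested, beyond fewer peaks or less sequence being counted. Leaving out 1 library gave between 0 and 2 liver-only members, 1 to 3 members without a promoter peak, 3 to 6 yolk-sac-only and 0 to 1 liver-only pathway genes. The width difference at Rbp4 then ranged from -50 to 150 bp, that at Rbp2 from 3800 to 4050 bp, at Dhrs3 from 2700 to 2850 bp and at Ttr from 925 to 1175 bp. Windows of 250 and 1000 bp and protein-coding starts changed no count by more than 1.5 times. With the replicate number as a block, the difference at Dhrs3 was 4 peaks with an exact permutation p of 0.5, the smallest the block allows. Nothing in the labels pairs the libraries, and the replicate differences of the tissues were correlated by 0.00877 across 17256 genes.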

Other observations

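Markers of cell types that handle retinoids were described further. The 5 mesothelial markers that were called in yolk sac only were Wt1, Upk3b, Upk1b, Msln and Krt19. The keratin gene Krt19 had the widest of them, 2152 and 1752 bp at the 85.9 and 89 percentiles, and Msln had peaks of 1352 and 902 bp. The narrowest was at Upk3b, with 102 bp in yolk sac replicate 1 and 802 bp in replicate 2, at the 12.7 and 67.6 percentiles. The other 3 genes of that list had no promoter peak in any library. Among the stellate cell markers, Colec11 and Ecm1 were called in yolk sac only, with peaks of 2252 and 2252 bp and of 2252 and 2102 bp. Reln, chosen after its values were seen, went the other way, with 2702 and 2652 bp in liver, none in yolk sac replicate 1 and 252 bp in yolk sac replicate 2.

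Of the 6 retinoic acid receptor genes, also chosen after their values were seen, Rara, Rarb and Rxra had more peaks in and near the gene in each yolk sac library, as did 46.1% of genes. The counts of Rarg, Rxrb and Rxrg overlapped between the tissues. These counts are from the full lists. Rarb, whose promoter window holds the DR5 match, had 1 and 1 peaks in and near the gene in liver, against 8 and 7 in yolk sac. With every list cut to its 24333 peaks of highest score, the counts were 1 and 1 against 3 and 1. Rxra had 5 and 4 peaks in liver, against 13 and 9 in yolk sac, and 5 and 4 against 5 and 3 in lists of equal length. In those lists Rara had 9 and 8 peaks in liver, against 7 and 6 in yolk sac. Rarg then had 6 and 4 in liver, against 2 and 3 in yolk sac. More peaks in each liver library was then the pattern of 26.8% of genes. The endocytic receptor gene Lrp2, which takes up Rbp4 in absorptive epithelia, had promoter peaks of 5302 and 4552 bp in yolk sac, 502 bp in liver replicate 1 and none in liver replicate 2.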
